A study of Mus musculus with 24 samples.

Results

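The difference between liver and epididymal white adipose tissue (EWAT) in the response to a SOX6 gapmer was measured over all 24 arrays of the series. A gapmer is a single-stranded antisense oligonucleotide whose central DNA stretch pairs with an RNA and recruits RNase H, which cleaves that RNA. SOX6 is a transcription factor of the SOX family that binds DNA through its high-mobility-group box and acts in cartilage, muscle and red blood cell differentiation. Liver takes up systemically given oligonucleotides readily, and EWAT is the fat depot attached to the epididymis, whose main cells store triglyceride.

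The 4 groups were liver or EWAT of male C57BL/6J mice on normal chow that had been injected intraperitoneally with control or SOX6-specific antisense oligonucleotides 48 h before. Each group held 4 labelled samples, C1 to C4 for control and S1 to S4 for SOX6, and 8 of the 16 samples had been hybridised on 2 arrays. No age, dose or oligonucleotide sequence was used here, and the labels do not say whether C1 of liver and C1 of EWAT came from one mouse. Replicates are therefore samples, and the p-values measure the spread between these samples. The response of a tissue is its SOX6 minus its control mean on the log2 scale, and the tissue difference is the EWAT response minus the liver response. A positive tissue difference means that a gene read higher after the SOX6 gapmer in EWAT, or lower after it in liver, relative to the other tissue.

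Defining genes of each tissue separated them. For 18 hepatocyte genes the median log2 level lay at 13.37 to 13.57 in liver samples and at 4.40 to 4.57 in EWAT samples, and for 12 adipocyte genes at 4.45 to 4.83 and at 9.42 to 10.61. Detected probes made up 32.9% to 36.4% of a liver array and 41.5% to 45.9% of an EWAT array. Repeat arrays of a sample correlated at a Pearson r of 0.987 to 0.995 across probes, and the number of arrays limits the precision. Some EWAT samples stood apart. The log2 summed signal of 17 epididymis and deferent duct genes was 14.75 in EWAT S2 and 14.45 in EWAT S4, against 6.68 to 8.30 in the other EWAT samples. That of 17 ciliated and transporting epithelium genes was 12.38 in EWAT C3 and 12.44 in EWAT S3, against 7.02 to 8.49 in the others. Results that rest on these samples are given with and without them.

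Sox6 itself was near the detection limit in both tissues. Only 1 of its 5 probes was detected. In liver it read 5.09, 5.63, 5.08 and 5.38 in C1 to C4 and 4.90, 5.06, 5.19 and 5.19 in S1 to S4. In EWAT it read 5.71, 5.75, 5.13 and 5.46 in the controls and 5.20, 4.89, 5.36 and 4.77 in the treated samples. Treated and control samples overlapped in each tissue. The probe was detected on 7 of 8 control and 2 of 6 treated liver arrays, and on 5 of 5 control and 5 of 5 treated EWAT arrays. The liver response was -0.21 (95% interval -0.59 to 0.17) and the EWAT response -0.45 (-0.83 to -0.076). The tissue difference of Sox6 was -0.24 (interval -0.78 to 0.29; exact two-sided permutation of the labels, p = 0.343, n = 4 per group), so a difference in knockdown between the tissues was not detectable with this probe. The tissue difference of Sox6 was -0.018 without EWAT S2 and S4 and -0.47 without EWAT C3 and S3. The permutation used the EWAT minus the liver value of each label. It therefore assumes that a label marks the same mouse in both tissues, which the labels do not say. In bulk tissue, fewer cells of a type and less RNA per cell cannot be told apart.

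Across the 8432 genes detected in both tissues, 5 genes differed in response between liver and EWAT at a Benjamini-Hochberg adjusted p under 0.05 (limma), which is 0.0593% of the genes tested. They were Abcf1, Fhit, Atg16l2, Ndufv1 and Ppp4r1l-ps. In all 5 the tissue difference was positive and the gene fell in liver. Atg16l2, Ndufv1 and Abcf1 fell there to 45%, 45.6% and 46.8% of their control level, and Fhit and Ppp4r1l-ps, which were not detected in treated livers, were at least 2.17-fold and 1.92-fold lower. Fhit and Ppp4r1l-ps entered the test through the control livers alone, where they are high. The EWAT level of the 5 genes was between 86.1% and 112% of control. No gene passed with a negative tissue difference, 0% of the genes tested, where the smallest adjusted p in limma was 0.197 and 311 genes had an unadjusted p under 0.05.

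Responses of the tissues were nearly unrelated across genes. Over the 8432 genes, which are not independent replicates and share the same 16 samples, the Pearson r between the liver and the EWAT response was 0.049 and Spearman's rho 0.042. The median tissue difference was -0.029, with 45% of genes above 0 and 55% below, and its median standard error was 0.21. At an unadjusted p under 0.05, 552 genes (6.55%) had a tissue difference, of which 241 (2.86%) were positive and 311 (3.69%) negative. Of these 552 genes, 163 had a liver response alone at an unadjusted p under 0.05, 246 an EWAT response alone, 20 both and 123 neither. In 18 of the 20 genes with both, the responses had opposite signs, which the choice by tissue difference favours. Among all genes tested, 56 had both responses at that level, and 18 of the 56 had opposite signs. Whatever their p, the responses had opposite signs in 49.1% of all genes. In liver 49% of responses were below 0 and 51% above, and 561 (6.65%) had an unadjusted p under 0.05, 2.96% of the genes higher and 3.69% lower. In EWAT 43.1% of responses were above 0, and at that level 3.85% of the genes were higher and 5.32% lower.

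**Figure D1:**
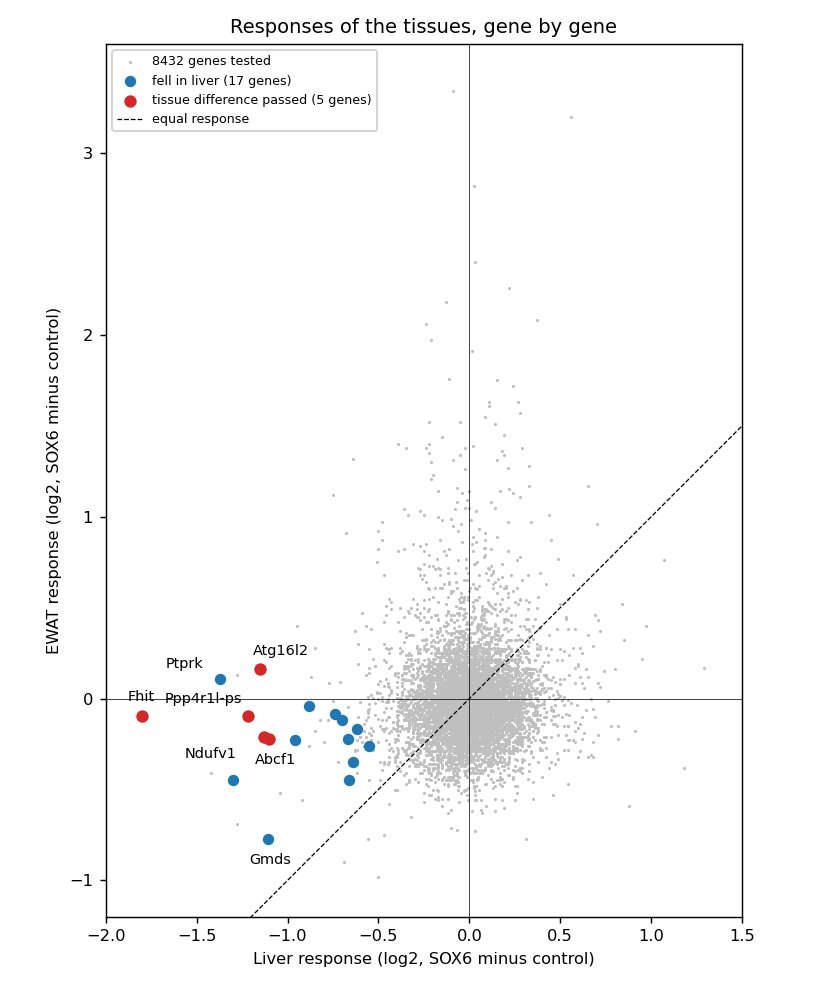
Each point is one of the 8432 genes tested, with its liver response on the x axis and its EWAT response on the y axis (log2, SOX6 minus control mean, n = 4 per group). The 17 genes that fell in liver (blue and red) lie far left of 0, between -1.80 and -0.55, while their EWAT values lie between -0.77 and 0.16. The 5 genes whose tissue difference passed are red.

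Abcf1 encodes a member of the ATP-binding cassette family without membrane-spanning parts that takes part in translation initiation (GRCm38.p6, chr17:35956819-35969750). In liver its log2 level was 9.28, 9.48, 9.55 and 9.60 in the controls and 8.26, 8.56, 8.34 and 8.37 in the treated samples. In EWAT it was 9.52, 9.59, 9.63 and 9.74 in the controls and 9.52, 9.25, 9.44 and 9.41 in the treated samples. Treated livers lay below every control liver, as they lay without overlap in either direction for 5.75% of all genes, and the EWAT groups met at 9.52. The tissue difference of Abcf1 was 0.88 (standard error 0.13, 95% interval 0.60 to 1.16, limma adjusted p = 0.0272). Its other detected probes gave 0.94 and 1.10, but they were detected on only 3 of 6 and 2 of 6 treated liver arrays and so read near background there.

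Fhit encodes a diadenosine triphosphate hydrolase and tumour suppressor that lies at a fragile site (chr14:9550092-11162061). In liver it read 5.92, 6.20, 6.32 and 6.46 in the controls and 4.39, 4.53, 4.30 and 4.47 in the treated samples, where it was not detected on any of the 6 arrays. In EWAT it read 6.10, 5.86, 6.62 and 5.68 in the controls and 5.76, 5.97, 6.31 and 5.84 in the treated samples, so the EWAT groups overlapped widely. Against the lowest signal that was detected on those arrays, Fhit was at least 2.17-fold lower in the treated livers (measured means 6.22 and 4.42). The fitted tissue difference of Fhit was 1.71 (standard error 0.26, interval 1.15 to 2.26, limma adjusted p = 0.0272). It depends on how background is handled: it was 0.91 with an offset of 50 (adjusted p = 0.0989).

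Atg16l2 encodes a relative of the autophagy protein ATG16L1 (chr7:101286325-101302267). Its liver level was 7.57, 7.95, 7.90 and 7.44 in the controls and 6.77, 6.53, 6.52 and 6.44 in the treated samples. Its EWAT level was 5.90, 5.76, 6.12 and 5.92 in the controls and 5.93, 5.86, 6.06 and 6.47 in the treated samples. The livers did not overlap and the EWAT samples did, with EWAT S4 the highest of them. The tissue difference was 1.31 (standard error 0.22, interval 0.85 to 1.77, limma adjusted p = 0.0418), with the EWAT point estimate of 0.16 above 0.

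Ndufv1 encodes the subunit of respiratory complex I that binds NADH (chr19:4007499-4012755). In liver it read 11.76, 11.75, 11.81 and 11.71 in the controls and 10.40, 10.99, 10.56 and 10.55 in the treated samples. In EWAT it read 12.11, 12.00, 12.02 and 12.17 in the controls and 12.08, 11.71, 11.76 and 11.89 in the treated samples. The treated livers were all lower than the controls, and EWAT S1 lay among the EWAT controls while the other treated EWAT samples lay below them. The tissue difference was 0.92 (standard error 0.15, interval 0.59 to 1.24, limma adjusted p = 0.0421).

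Ppp4r1l-ps is a pseudogene related to a regulatory subunit of protein phosphatase 4 (chr2:173579320-173659539), and signal from its functional relatives cannot be told apart where they share the probe's sequence. It read 6.01, 6.06, 6.15 and 5.99 in the control livers and 4.73, 5.10, 4.78 and 4.71 in the treated livers, where none of the 6 arrays detected it, so it was at least 1.92-fold lower there (measured means 6.05 and 4.83). In EWAT it read 5.89, 5.38, 5.64 and 5.83 in the controls and 5.61, 5.84, 5.38 and 5.53 in the treated samples, which overlapped. The fitted tissue difference was 1.13 (standard error 0.19, interval 0.72 to 1.54, limma adjusted p = 0.0440), and a dimmer second probe of Ppp4r1l-ps gave 0.32. With an offset of 50 it was 0.63 (adjusted p = 0.0731).

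**Figure D2:**
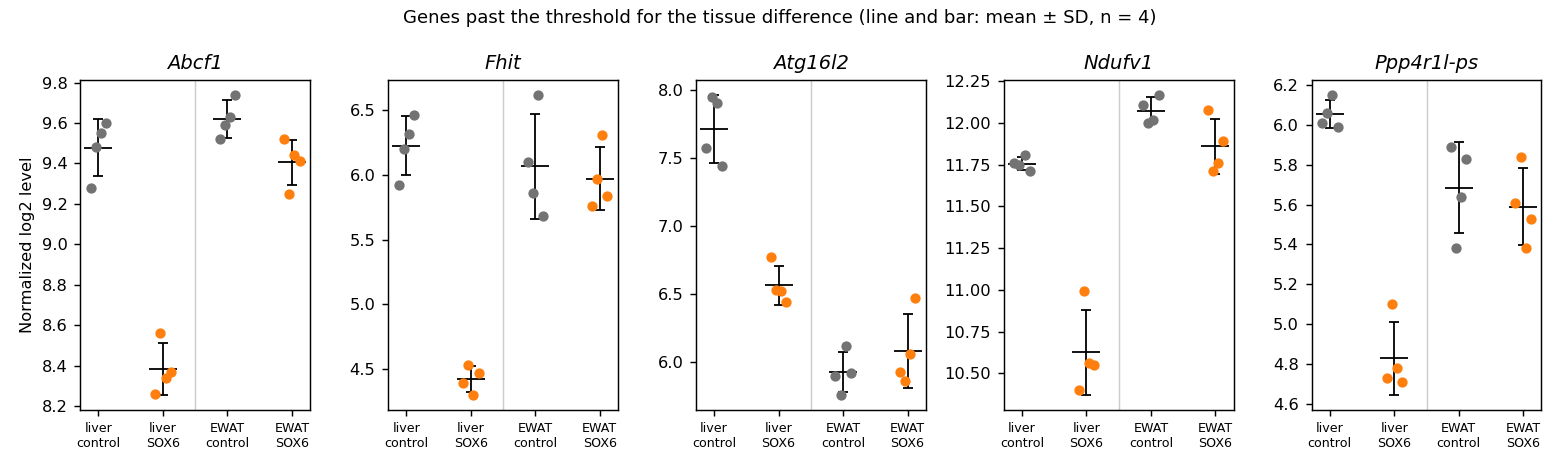
Normalized log2 level of the 5 genes past the threshold for the tissue difference, one panel per gene, each with its own y axis. Points are samples, and the line and bar are the mean ± SD (n = 4). In each panel the treated livers (second column) lie below all control livers, while the EWAT groups overlap for Fhit, Atg16l2 and Ppp4r1l-ps, meet at 9.52 for Abcf1, and for Ndufv1 have EWAT S1 alone of the treated samples among the controls.

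Each chip held both treatments in both tissues, and within the 4 chips the tissue difference was positive for all 5 genes. It ran from 0.79 to 1 for Abcf1, from 0.90 to 2.42 for Fhit, from 1.03 to 1.87 for Atg16l2, from 0.56 to 1.26 for Ndufv1 and from 0.81 to 1.51 for Ppp4r1l-ps. The choice of these genes by their tissue difference on the same arrays favours a positive sign on each chip. Some samples, such as EWAT S1 on chips 1 and 3, lay on more than 1 chip, so the chips are not independent. Without EWAT S2 and S4 the estimates were 0.95 for Abcf1, 1.77 for Fhit, 1.23 for Atg16l2, 0.98 for Ndufv1 and 1.04 for Ppp4r1l-ps, and no gene passed (smallest limma adjusted p 0.0816). Leaving out 1 sample at a time ended all calls in 11 of 16 cases, while the estimates stayed within 0.84 to 0.95 for Abcf1 and 1.58 to 1.89 for Fhit.

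The liver response of the 5 genes belonged to a wider set. In the same fit 17 genes fell in liver at an adjusted p under 0.05 and none rose (0.202% of the genes tested), whereas 0% of the genes passed in EWAT, with a smallest limma adjusted p of 0.204 and 774 genes (9.18%) at an unadjusted p under 0.05. These 17 genes were chosen by their liver response, so their tissue differences are partly fixed by that choice and are given as a description. Their EWAT responses come from other samples. Beside the 5 genes above they were Ptprk, a receptor tyrosine phosphatase, Pdzrn3, a ubiquitin ligase, Gmds, which makes a precursor of GDP-fucose, Sugct, a mitochondrial CoA transferase, Gsdmd, the pore-forming protein of pyroptosis, Cars, the cysteinyl-tRNA synthetase, Ino80c, a subunit of a chromatin remodelling complex, Cask, a membrane scaffold protein, Ube2e2, a ubiquitin-conjugating enzyme, Umad1, Gask1a and Vwa8.

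In EWAT 15 of the 17 genes read lower after the SOX6 gapmer, beside 56.9% of all genes tested. At an unadjusted p under 0.05, 6 of the 17 were lower in EWAT, beside 5.32% of all genes, and 5 had EWAT groups that did not overlap, beside 2.86% of all genes. The EWAT responses were smaller: their median was -0.21 (range -0.77 to 0.16) against a median liver response of -0.96. In 15 of the 17 genes the whole 95% interval of the EWAT response lay above the liver value. The exceptions were Gmds and Ino80c. That count leaves out the error of the liver value, and the choice of the genes by liver response favours it. The tissue difference had an unadjusted p under 0.05 in limma for 13 of the 17, beside 6.55% of all genes, and 5 passed the adjusted threshold.

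Gmds was the gene of this set with the lowest EWAT response. It read 5.98, 5.68, 5.21 and 6.11 in the control livers and 4.38, 4.58, 4.98 and 4.62 in the treated livers. In EWAT it read 7.22, 6.99, 7.47 and 7.17 in the controls and 6.51, 6.24, 6.79 and 6.22 in the treated samples. Treated and control samples of Gmds did not overlap in either tissue. The Gmds response was -1.11 in liver and -0.77 in EWAT (interval -1.19 to -0.36), and the tissue difference of 0.33 was not past the threshold (limma adjusted p = 0.834). All treated livers of Gmds read below 5.11, the mean lowest detected signal of those arrays. Its liver response and tissue difference are therefore not well measured. The treated livers of Cars (4.61 to 4.82) and Gask1a (4.78 to 5.09) also read below 5.11. Ino80c read 8.49, 8.25, 8.39 and 8.22 in the control livers and 7.62, 7.86, 7.75 and 7.48 in the treated livers. In EWAT Ino80c read 9.57, 9.69, 9.47 and 9.54 in the controls and 9.38, 8.87, 8.96 and 9.27 in the treated samples, again without overlap, with responses of -0.66 in liver and -0.45 in EWAT.

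Ptprk and Atg16l2 were the genes of the set with EWAT values above 0. Ptprk was 9.49, 9.58, 9.41 and 9.44 in the control livers and 7.92, 8.61, 8 and 7.92 in the treated livers. In EWAT Ptprk was 6.70, 7.26, 7.84 and 7.21 in the controls and 6.90, 7.28, 8.04 and 7.22 in the treated samples, nearly the same 4 values. Its tissue difference was 1.47 with a wide interval of 0.76 to 2.19 (limma adjusted p = 0.309). A second probe of Ptprk gave 1.54 and another 0.0024, so its probes disagreed. The probe that gave 1.54 was detected on 0 of 6 treated liver arrays. In EWAT it was detected on 1 of 5 control and 3 of 5 treated arrays.

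The count of 15 of 17 genes below 0 in EWAT was the same without EWAT S2 and S4, without EWAT C3 and S3, without all 4, with each tissue normalized by itself, on the authors' values and with EWAT alone in the fit. The count at an unadjusted p under 0.05 was 3, 5, 0, 5, 6 and 5 under these settings, beside 2.68%, 7.9%, 2%, 4.97%, 5.4% and 3.38% of all genes. Within chips 1 to 4, 13, 12, 15 and 15 of the 17 genes were below 0 in EWAT, beside 56%, 59.5%, 53.5% and 44.9% of all genes.

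**Figure D3:**
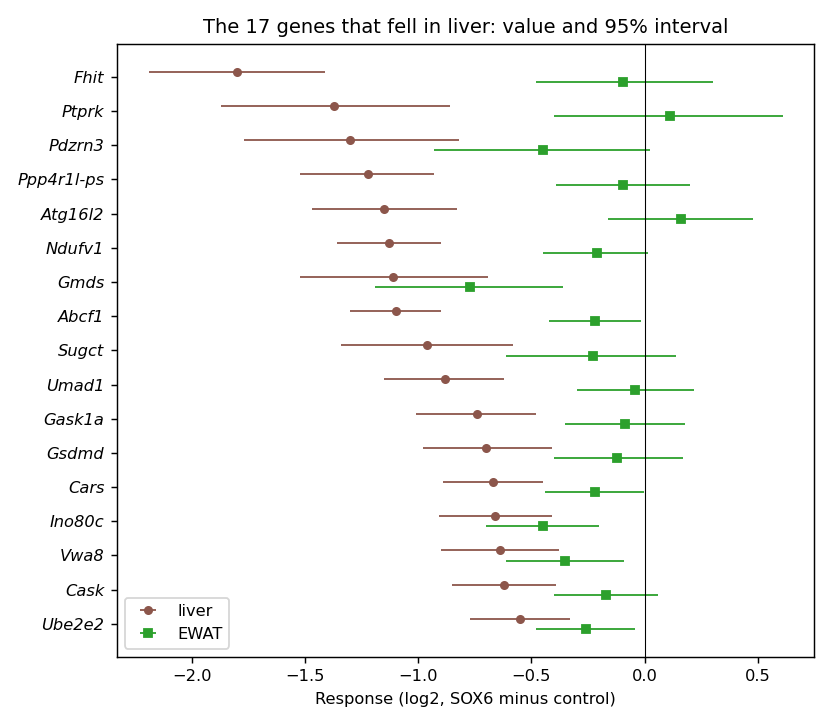
Liver (circles) and EWAT (squares) response of the 17 genes that fell in liver, with 95% intervals from limma (log2, SOX6 minus control, n = 4 per group). EWAT values cluster between -0.45 and 0.16 except for Gmds at -0.77, and they lie right of the liver value for every gene.

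The set that fell in liver held both long and short genes. Of the 17, 9 span over 100 kb from start to end in GRCm38.p6, beside 11% of all genes tested, and their median span was 169 kb against 21.9 kb. Over all genes the tissue difference also varied with span. The 300 genes spanning over 200 kb had a median liver response of -0.10 and a median EWAT response of -0.041, so that 57% had a positive tissue difference and 8.33% were positive at an unadjusted p under 0.05, beside 45% and 2.85% of all genes with a span. In the 5 bins of shorter genes the median tissue difference was -0.014 to -0.049. Among the 5 genes that passed, only Fhit exceeds 200 kb, at 1610 kb, and Ndufv1 spans 5.26 kb.

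SOX proteins bind a short motif, so the promoters of the genes that fell in liver were searched for AACAAT and AACAAAG on both strands, in the window from 250 bases before to 50 bases after each start in RefSeq (GRCm38.p6). Of 15 windows from the 12 genes that the table holds, 2 had a match (13.3%), beside 9.14% of 8865 windows of the genes tested and 15.7% of 32851 windows of all genes. Both are shown 5′ to 3′ on the strand of the gene because they are the windows of this set with a match, with the match in capitals, AACAAAG from base 85 in Ptprk and ATTGTT, the reverse complement of AACAAT, from base 61 in Fhit. The Ptprk window is chr10:28074570-28074869 on the plus strand, and the Fhit window, which belongs to one of its starts, is chr14:10453409-10453708 on the minus strand. No match was found in the windows of Abcf1, Atg16l2 and Ndufv1. A match is a description of the letters and not a binding site.
Ptprk: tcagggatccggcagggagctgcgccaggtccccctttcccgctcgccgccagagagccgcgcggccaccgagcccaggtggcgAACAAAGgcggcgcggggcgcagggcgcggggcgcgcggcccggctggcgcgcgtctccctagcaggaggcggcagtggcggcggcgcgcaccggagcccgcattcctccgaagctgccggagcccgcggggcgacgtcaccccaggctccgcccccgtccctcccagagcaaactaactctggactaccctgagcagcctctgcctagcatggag
Fhit: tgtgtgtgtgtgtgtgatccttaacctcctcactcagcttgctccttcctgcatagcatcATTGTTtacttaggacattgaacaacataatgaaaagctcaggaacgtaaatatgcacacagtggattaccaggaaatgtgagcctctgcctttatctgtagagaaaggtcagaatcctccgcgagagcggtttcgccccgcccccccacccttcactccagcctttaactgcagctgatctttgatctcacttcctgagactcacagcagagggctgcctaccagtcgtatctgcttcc

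Below the threshold, the genes with the smallest p-values and label differences without overlap between treatments were taken next. The label difference is the EWAT minus the liver value of samples with the same label, and 3.24% of all genes had no overlap. This rule pairs the tissues by label, although the labels do not say that they mark the same mouse. On the positive side they were Prdx2, a peroxiredoxin that reduces hydrogen peroxide, Umad1, Ptprk, Aimp1, a scaffold of the aminoacyl-tRNA synthetase complex, and Mylk, the smooth muscle myosin light chain kinase. None passed, with limma adjusted p-values from 0.197 to 0.635. Prdx2 separated the groups in EWAT, where it read 11.18, 11.20, 11.40 and 11.33 in the controls and 11.62, 11.62, 11.71 and 11.57 in the treated samples. In liver Prdx2 read 11.20 to 11.29 in the controls and 10.94 to 11.21 in the treated samples, giving a tissue difference of 0.50. Treated EWAT samples were all above the controls, but 2 dimmer probes of Prdx2 gave -0.26 and -0.003.

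Mylk had the largest estimate of these genes, a tissue difference of 1.87 (interval 0.83 to 2.90, limma adjusted p = 0.635). In liver Mylk read 9.97, 10.14, 10.20 and 9.99 in the controls and 9.37, 9.29, 9.30 and 9.35 in the treated samples. In EWAT it read 12.09, 11.52, 12.06 and 11.83 in the controls and 11.71, 13.95, 12.49 and 13.83 in the treated samples. The high EWAT values of Mylk are S2 and S4, the samples with epididymis and deferent duct genes, and the log2 summed signal of 10 smooth muscle genes was 15.98 and 15.71 there against 12.61 to 13.70 in the other EWAT samples. Without S2 and S4 the Mylk estimate was 0.97.

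On the negative side 10 genes were named. Aldh6a1, which breaks down valine and thymine in mitochondria, had the smallest p-value, with a tissue difference of -0.77 (interval -1.11 to -0.43, limma adjusted p = 0.197). It read 11.16, 11.28, 11.39 and 11.35 in the control livers and 11.55, 11.71, 11.48 and 11.46 in the treated livers. In EWAT Aldh6a1 read 12.69, 12.40, 12.04 and 12.60 in the controls and 11.86, 12.01, 11.83 and 11.98 in the treated samples. All treated livers were above the controls and all treated EWAT samples below them. Timm8a1, an import chaperone, gave -0.47, and the carriers Sfxn1 for serine and Slc25a38 for glycine gave -0.56 and -0.44. Pus1, a pseudouridine synthase that acts on mitochondrial and nuclear tRNA, gave -0.60, but a second probe of Pus1 gave -0.072.

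Esrra, a nuclear receptor that drives genes of mitochondrial energy metabolism, gave -0.68 (interval -0.99 to -0.37, limma adjusted p = 0.229). Its liver level was 8.53, 8.67, 8.58 and 8.89 in the controls and 9.01, 8.99, 9.03 and 9.25 in the treated samples. Its EWAT level was 9.02, 8.76, 8.79 and 9.09 in the controls and 8.56, 8.70, 8.62 and 8.67 in the treated samples. The groups of Esrra separated in opposite directions in the tissues, and a second probe gave -0.54. Agt, which encodes angiotensinogen, the precursor of angiotensin, separated the groups in EWAT and not in liver. Agt read 10.85, 10.44, 10.42 and 10.67 in the EWAT controls and 10, 9.71, 10.18 and 10.03 in the treated EWAT samples, with 10.63 to 10.73 and 10.69 to 10.84 in liver. Its tissue difference was -0.68 (limma adjusted p = 0.267). Gstt2, a glutathione transferase, gave -0.78, Fchsd2, a membrane-bending protein, gave -0.80, and Ppp4r4, a regulatory subunit of protein phosphatase 4, gave -0.76. None of these 10 genes passed. When the 24 arrays were entered unaveraged with the sample as a random block, 5 of them (Agt, Aldh6a1, Esrra, Fchsd2 and Gstt2) passed as well. On the positive side Prdx2, Ptprk and Umad1 did so too. Repeat arrays of the same sample add to the degrees of freedom of that fit. These calls therefore rest on arrays, and none of these genes passed with samples as replicates.

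**Figure D4:**
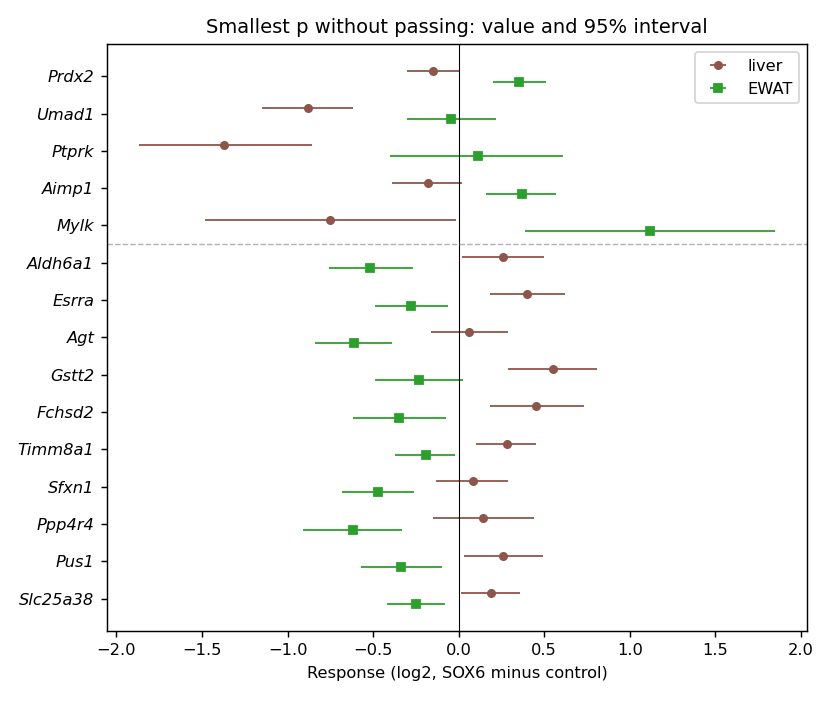
Liver (circles) and EWAT (squares) responses with 95% intervals of the genes next in rank that did not pass, 5 with a positive tissue difference (above the dashed line) and 10 with a negative one (log2, SOX6 minus control, n = 4 per group). For the negative genes the liver value is above 0 and the EWAT value below 0 in all 10, which the choice by tissue difference favours. Opposite signs were also found in 298 of the 311 genes negative at an unadjusted p under 0.05 in limma. Mylk has the widest intervals.

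Pathways were compared by 26 gene lists, for each of which the count of positive and negative tissue differences and their median stand beside the same for all genes (45% positive, 55% negative, median -0.029). Ndufv1 was the only list member past the threshold. No list is called different from the rest of the genes, since none was tested as a set.

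The respiratory chain list, nuclear genes for subunits of complexes I to V, held 31 tested genes. Of these, 26 had a negative and 5 a positive tissue difference, with a median of -0.13 (liver 0.056, EWAT -0.082). Ndufv1 stood against its list with its tissue difference of 0.92. Ndufb8, another subunit of complex I, was 0.13 in liver and -0.24 in EWAT, a tissue difference of -0.37 (interval -0.64 to -0.10, limma adjusted p = 0.675). The median within the 4 chips was -0.13, -0.11, -0.20 and -0.10, below 0 in each, and it was -0.082 without EWAT C1.

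Genes of fatty acid oxidation and ketogenesis, by which mitochondria burn fat and liver makes ketone bodies, had the same order of the tissues. Of 17 tested, 13 had a negative tissue difference, and the median was -0.25 (liver 0.15, EWAT -0.093). Cpt2, the inner-membrane carnitine palmitoyltransferase, gave 0.15 in liver and -0.18 in EWAT, and Acads, the short-chain acyl-CoA dehydrogenase, gave 0.22 and -0.25. The tissue differences of Cpt2 and Acads were -0.33 and -0.47 (limma adjusted p 0.692 and 0.752). The median of the list within chips was -0.32, -0.10, -0.30 and 0.094.

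Of the 26 lists the circadian clock had the most one-sided count, with 11 of 12 tested genes negative and a median of -0.31. Within chips the median was -0.48, 0.025, -0.28 and -0.31, so it was not below 0 in the second. The median liver response was 0.35 and the median EWAT response 0.059. Tef, a transcription factor of the clock's output, read 9.82, 10.33, 10.49 and 10.28 in the control livers and 10.57, 10.74, 10.58 and 10.49 in the treated livers. In EWAT Tef read 10.51, 10.52, 10.76 and 10.82 in the controls and 10.36, 10.34, 10.74 and 10.64 in the treated samples. Its tissue difference was -0.50 (limma adjusted p = 0.675). Ciart, a repressor within the clock, read 5.64, 6.74, 6.89 and 7.39 in the control livers and 7.54, 7.11, 7.99 and 7.81 in the treated livers, with a tissue difference of -0.72 (limma adjusted p = 0.784). The low control is liver C1 for both Tef and Ciart. Centred on its mean in a tissue, the clock list averaged -0.58 in liver C1, -0.11 to 0.00028 in the other control livers and 0.11 to 0.26 in the treated livers. Without liver C1 the median tissue difference of the list was -0.16.

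Extracellular matrix genes lay on the other side. Of 19 tested, 15 had a positive tissue difference, with a median of 0.25 (liver -0.14, EWAT 0.089). In liver 18 of the 19 were below 0, beside 49% of all genes. Fn1, which encodes fibronectin, read 8.69, 9.64, 9.26 and 7.99 in the control EWAT samples and 9.92, 9.68, 10.26 and 8.99 in the treated ones, which overlapped. In liver Fn1 was 11.06 to 11.30 in the controls and 10.93 to 11.17 in the treated samples. Its tissue difference was 0.93 (interval 0.085 to 1.78, limma adjusted p = 0.706). Mmp2, a gelatinase that cuts matrix, was -0.23 in liver and 0.48 in EWAT. The median of the matrix list within chips was 0.34, 0.30, 0.37 and 0.34. It was 0.38 without EWAT S2 and ran from 0.12 to 0.49 over all settings. Centred on its mean in a tissue, the list averaged 0.40 in liver C1, -0.15 to 0.14 in the other control livers and -0.21 to 0.029 in the treated livers. In EWAT it averaged -0.29 to 0.20 in control and -0.18 to 0.18 in treated samples, which overlapped. Markers of other cells went both ways. A positive tissue difference was found in 9 of 10 tested macrophage genes and 10 of 10 tested fibroblast and stellate genes. Col1a1, Col3a1, Dcn and Lum stand in both the fibroblast and the matrix list. A negative one was found in 10 of 13 tested endothelial and 3 of 4 tested adipocyte genes, the latter out of 14 listed. The log2 summed macrophage signal was 10.85 to 12.55 in control and 11.73 to 13.12 in treated EWAT, and 10.63 to 12.06 and 10.94 to 11.43 in liver. The summed fibroblast and stellate signal was 14.03 to 14.67 in control and 14.45 to 14.68 in treated EWAT, and 11.58 to 12.20 and 11.72 to 12.06 in liver. Their part in the result was not tested.

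Ribosomal protein genes were positive in 15 of 19, with small values: the median was 0.14 (liver -0.089, EWAT 0.047). Rpl10a was -0.20 in liver and 0.14 in EWAT, and Rpl27 was -0.13 and 0.089 (tissue differences 0.33 and 0.22, limma adjusted p 0.692 and 0.741). Within chips the median of the list was 0.16, 0.25, 0.14 and -0.089, and without EWAT S3 it was 0.079. Acute phase and complement genes were positive in 9 of 14 with a median of 0.27, which within chips was 0.60, -0.31, 0.16 and -0.29 and so changed sign.

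Lipid synthesis genes mostly read below control in each tissue, none past the threshold. Of 24 genes of fatty acid and triglyceride synthesis, 18 were below 0 in liver and 18 in EWAT, beside 49% and 56.9% of all genes. The medians were -0.28 and -0.22. Centred on its mean in a tissue, the list averaged -0.15 to 0.32 in control and -0.19 to -0.11 in treated livers. In EWAT it averaged -0.30 to 0.42 in control and -0.21 to 0.087 in treated samples, so the groups overlapped in both tissues. The tissue difference of these genes was positive in 16 and negative in 8, with a median of 0.17 that was below 0 in 1 of 4 chips. Acacb, an acetyl-CoA carboxylase of the mitochondrial surface, read 9.35, 10.14, 9.78 and 9.84 in the control livers and 9.30, 8.94, 8.88 and 8.73 in the treated livers. In EWAT Acacb read 10.59, 10.07, 9.31 and 10.84 in the controls and 10.11, 10.03, 9.87 and 10.31 in the treated samples, within the range of the controls. Its tissue difference was 0.70 (interval -0.061 to 1.45, limma adjusted p = 0.767). Dgat2, which makes triglyceride, was 0.21 in liver and -0.28 in EWAT. Cholesterol synthesis genes were below 0 in 13 of 16 in liver and 12 of 16 in EWAT, beside the same 49% and 56.9% of all genes. Their tissue differences split 8 to 8 (median 0.013). Fdps, which makes farnesyl pyrophosphate, was -0.46 in liver and 0.51 in EWAT, and Tm7sf2, a sterol reductase, was -0.23 and 0.15. Tm7sf2 had EWAT means of 5.09 in control and 5.24 in treated samples, near background.

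Lipolysis and lipid droplet genes, which include droplet coat proteins as well as lipases, were negative in 9 of 12, with a median of -0.16. Lipe, the hormone-sensitive lipase, was 0.30 in liver and -0.34 in EWAT. G0s2, which inhibits the adipose triglyceride lipase, was 0.67 and -0.31. The tissue differences of Lipe and G0s2 were -0.63 and -0.98 (limma adjusted p 0.701 and 0.784). Lipe had liver means of 4.73 in control and 5.03 in treated samples, near background, so its liver response and tissue difference are not well measured. Gluconeogenesis and glycolysis genes were negative in 8 of 11 with a median of -0.14, which ran from -0.29 to 0.11 over the alternatives. Pfkfb3, which makes the glycolytic activator fructose 2,6-bisphosphate, was 0.58 in liver and -0.24 in EWAT, and the glucose transporter Slc2a1 was 0.56 and -0.022. The control liver mean of Pfkfb3, 4.72, is also near background.

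Wnt signalling and fat cell formation are the processes that the study's title names. In the canonical pathway, secreted Wnt ligands bind Frizzled receptors and LRP co-receptors, which stabilizes β-catenin and restrains fat cell formation. Of 15 tested ligands, receptors and transducers, 8 had a positive and 7 a negative tissue difference (median 0.0022), of 11 antagonists 4 and 7 (median -0.059), and of 9 target genes 6 and 3 (median 0.056). None of these passed the test. Rspo3, a secreted amplifier of Wnt signals, read 6.89, 6.67, 6.87 and 6.59 in the control livers and 6.50, 6.45, 6.60 and 6.68 in the treated livers. In EWAT Rspo3 read 5.79, 4.89, 5.80 and 5.13 in the controls and 5.54, 7.70, 6.11 and 7.19 in the treated samples. Its tissue difference was 1.43 (limma adjusted p = 0.675) and 0.62 without EWAT S2 and S4, which hold its highest values. The receptor Fzd5 was 0.28 in liver and -0.17 in EWAT, and Ctnnbip1, an inhibitor of β-catenin, was 0.29 and -0.17. Kremen1, an antagonist that removes LRP co-receptors, was 0.14 and -0.27. Of the targets, Ppard was 0.33 in liver and -0.10 in EWAT, and Nkd1 was -0.024 and 0.36. Nkd1 had liver means of 4.98 in control and 4.96 in treated samples, near background.

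Adipogenic regulators were negative in 8 of 12 with a median of -0.22. Bmp4, a growth factor that commits precursors to the fat lineage, read 6.47, 6.12, 6.68 and 6.59 in the control livers and 6.21, 5.79, 5.75 and 6.26 in the treated livers. In EWAT Bmp4 read 7.34, 7.87, 7.19 and 7.66 in the controls and 8.13, 7.51, 7.72 and 8.53 in the treated samples. Treated and control samples overlapped in each tissue, and the tissue difference of 0.92 did not pass (limma adjusted p = 0.654). Cebpa, a master regulator of adipocytes that is also central in hepatocytes, was 0.13 in liver and -0.27 in EWAT. Of 21 listed genes of the mature adipocyte, the 8 that passed the detection filter in both tissues split 4 to 4 (median -0.01). Lipe and Pck1, the gluconeogenic and glyceroneogenic enzyme, were the lowest in p. The filter leaves out adipocyte genes not detected in liver, so the split does not describe the whole list. Lipe itself lies near background in liver. Of the SOX family, 8 of 10 tested genes had a negative tissue difference, with a median of -0.28. Sox5, the closest relative of Sox6, was 0.11 in liver and -0.34 in EWAT, and Sox8 was 0.30 and -0.032, neither past the threshold. Sox8 had group means of 4.82 to 5.16, near background in both tissues, so its values are not well measured.

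Lists that describe reactions to an oligonucleotide split near evenly or with a small majority. Nucleic acid sensing genes split 6 to 6 (median 0.001), genes of oligonucleotide uptake and cleavage 8 to 7 (median 0.033), unfolded protein and integrated stress response genes 8 to 8 (median -0.037), and p53 targets 4 positive to 6 negative (median -0.016). Interferon-induced genes were negative in 13 of 22 (median -0.15, from -0.26 to 0.15 over the alternatives). Their responses were above 0 in 18 of 22 in liver and 12 of 22 in EWAT, beside 51% and 43.1% of all genes. Drug and xenobiotic metabolism genes were positive in 9 of 14 (median 0.038). Ugt1a6a and Ugt1a6b, phase II conjugating enzymes that share most of their sequence and may share probe signal, were -0.85 and -0.87 in liver and 0.28 and 0.12 in EWAT (tissue differences 1.13 and 0.98, limma adjusted p 0.635 and 0.654).

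**Figure D5:**
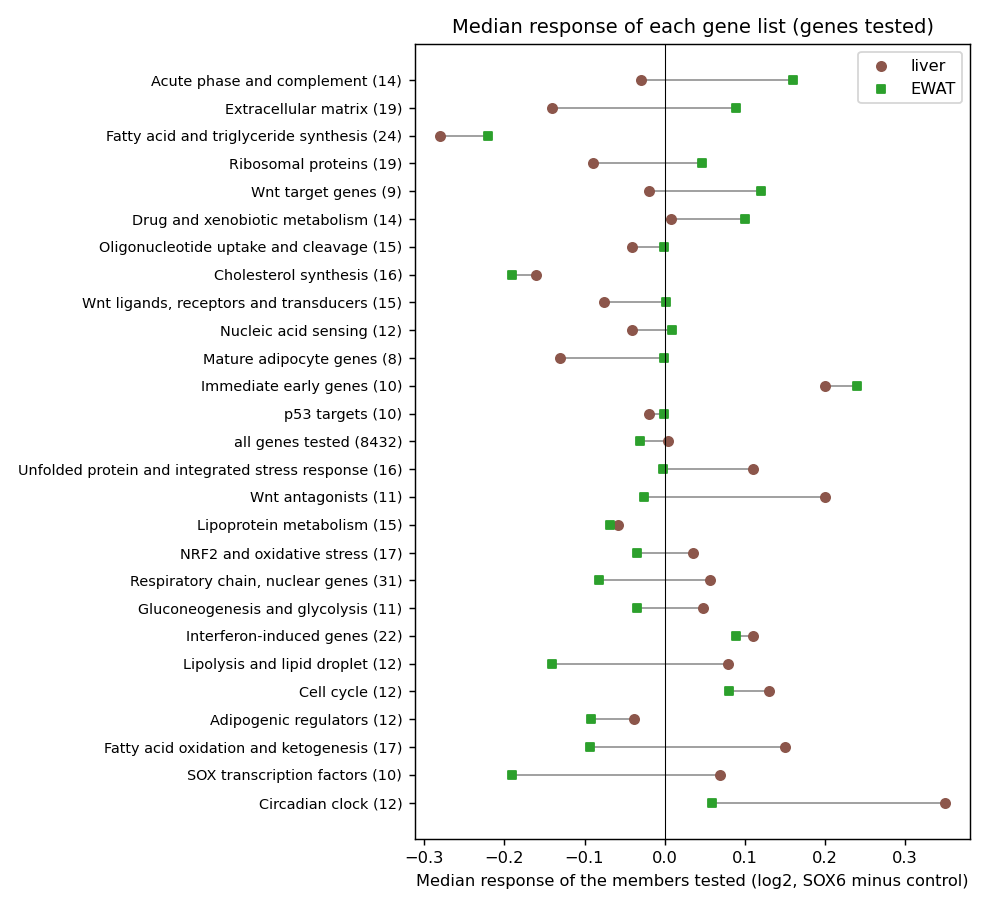
Median liver (circles) and EWAT (squares) response of the tested members of each of 26 gene lists and of all genes, sorted by the median tissue difference, with the number of genes tested in brackets (log2, SOX6 minus control). The clock, fatty acid oxidation and respiratory chain lists have EWAT left of liver, the matrix and ribosomal protein lists have EWAT right of liver, and lipid and cholesterol synthesis lie left of 0 in both tissues. No list was tested as a set.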

How the data were processed

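RNA of liver and EWAT had been hybridised to Illumina mouse bead arrays. Per the submitters' processing notes, the authors used GenomeStudio, whose version is not given in the sources used here. The deposited intensity values are background-subtracted signals, not normalized between arrays, and 25.7% to 37% of them lie below 0 on an array. A detection p-value per probe was deposited by the authors beside each intensity. Processed log2 values by the authors were quantile normalized over all 24 arrays (from the values: each column holds the same sorted values within 0.001 and the same median of 4.43, keeps the order of the intensities and rises with them), and were used as an alternative. Their background step is not given in the sources used here.

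All 24 arrays were background corrected from the detection p-values and quantile normalized together, with an offset of 16 (neqc, limma 3.58.1, R 4.3.3), and repeat arrays of a label and tissue were averaged. A sample counted a probe as detected when its mean detection p-value was under 0.05. Genes detected in at least 3 of 8 samples in each tissue were kept, each by its probe with the highest mean. Of 45281 probes, 34885 have 1 gene symbol, 18 several and 10378 none, and 34807 matched RefSeq by gene ID. The 4 groups were fitted together (lmFit and eBayes with an intensity trend), responses and their difference were tested two-sided, and p-values were adjusted by Benjamini-Hochberg over 8432 genes. Another 493 genes were detected in liver alone and 2532 in EWAT alone, and were not tested. A bound was set against the lowest detected signal of each array.

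The members of the comparison, the 26 pathway and 15 cell type lists (811 entries, 746 with a named probe) and the alternatives were chosen with earlier results of these data known. Named were every Sox6 probe, genes past the threshold up to 15 per direction, filled to 10 per direction by the smallest p among genes whose label differences did not overlap, and the 2 members of each pathway list with the smallest p. The genes that fell in liver were named as a set after their values were seen.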

Additional observations from a re-analysis of the deposited data

Results flagged for a closer look

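The responses of liver and EWAT differed by a test of the difference itself for Abcf1 (0.88), Fhit (1.71), Atg16l2 (1.31), Ndufv1 (0.92) and Ppp4r1l-ps (1.13). These are the EWAT minus the liver response on the log2 scale, in limma's fit over 8432 genes. Fhit and Ppp4r1l-ps entered the fit through the control livers alone and were not detected in treated livers. Their liver fall is known only as a bound, at least 2.17-fold and 1.92-fold. With an offset of 50 their tissue differences were 0.91 and 0.63 and did not pass.

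One sample lay far from the other 3 of its group for 19 of 320 combinations of a named gene and a group (5.94%). Chance flags about 1 in 20 groups, so a pattern of this size is near what chance gives. In liver, Umad1 read 8.24 in control C4 (others 7.94 to 7.97) and Fchsd2 read 7.87 in control C2 (others 8.27 to 8.31). Cpt2 read 11.59 in control C3 (others 11.34 to 11.37). Among the treated livers, Ptprk read 8.61 in S2 (others 7.92 to 8), Ndufb8 12.14 in S2 (others 12.29 to 12.30) and Esrra 9.25 in S4 (others 8.99 to 9.03). Ccne1 read 5.09 (others 5.92 to 6.08) and Cars 4.82 (others 4.61 to 4.63) in S3, and Pck1 read 9.39 in S1 (others 10.03 to 10.15).

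In control EWAT, C3 read 8.78 for Stab1 (others 8.64 to 8.66), 4.79 for Tm7sf2 (others 5.16 to 5.23) and 8.55 for Pck1 (others 9.39 to 9.46). Ndufb8 read 12.92 in C2 (others 13.23 to 13.27) and Sox8 read 5.23 in C1 (others 4.68 to 4.77). In treated EWAT, Sfxn1 read 12.05 in S2 (others 12.46 to 12.50), Ndufb8 13.17 in S4 (others 12.83 to 12.89) and Fas 8.87 in S4 (others 8.59 to 8.63). S1 read 7.01 for Trib3 (others 6.25 to 6.38) and 8.11 for Bbc3 (others 6.78 to 6.97).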

How the results depend on the processing

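The tissue differences of the 5 genes kept their direction in every setting tried (38 beside the main one, 37 for Fhit and Ppp4r1l-ps), from 0.82 to 1.02 for Abcf1, 1.03 to 1.5 for Atg16l2, 0.91 to 2 for Fhit, 0.84 to 1.12 for Ndufv1 and 0.63 to 1.22 for Ppp4r1l-ps. The lowest values of Fhit and Ppp4r1l-ps came with an offset of 50. In that order the 5 genes passed the threshold in 22, 18, 17, 12 and 8 of these settings, the main one not counted. The number of genes past it was less stable than the estimates, and the cause was not tested. Positive genes numbered 3 with each tissue normalized by itself, 2 with median scaling, 2 with an offset of 50, 2 among genes detected in at least 1 tissue, 3 among genes detected in all 8 samples, 3 with a variance for each tissue and 0 with 1 array per sample. Without a filter 1 gene was positive (Abcf1) and 1 negative (Adam32). Sample quality weights gave 6 positive genes and 1 negative (Aldh6a1). With arrays not averaged there were 8 positive and 5 negative genes, with chip as a fixed term as well as without it. In these fits repeat arrays of a sample add to the degrees of freedom. Leaving out 1 sample at a time gave 0 to 4 positive and 0 to 2 negative genes. No gene passed in 11 of the 16 cases, while calls remained without liver C1 (2), liver S2 (4), EWAT C3 (3 positive and 2 negative), EWAT S1 (4) and EWAT S2 (4). Without EWAT S2 and S4 there were 0, without EWAT C3 and S3 5 positive and 1 negative (Aldh6a1), and without all 4 there were 3 (Keg1, Pdzk1 and Slc27a2), which shared no gene with the main 5. Median scaling moved the split at an unadjusted p under 0.05 from 241 positive and 311 negative to 280 and 245. Directions turned without EWAT C3, S2, S3 and S4 for Tm7sf2 (-0.024), Bbc3 (0.11) and Fas (-0.0011), and for Fas with the mean of a gene's probes (-0.0074). List medians kept their sign in all settings for the clock (-0.41 to -0.16), fatty acid oxidation (-0.29 to -0.13), respiratory chain (-0.19 to -0.049), matrix (0.12 to 0.49), ribosomal proteins (0.079 to 0.20), lipolysis and lipid droplets (-0.27 to -0.079), adipogenic regulators, Wnt antagonists, oxidative stress, acute phase and SOX genes. For the other pathway lists the median changed sign, among them fatty acid and triglyceride synthesis (-0.024 to 0.26), interferon-induced genes (-0.26 to 0.15), gluconeogenesis and glycolysis (-0.29 to 0.11), cell cycle (-0.32 to 0.069), lipoprotein (-0.14 to 0.05), the unfolded protein and integrated stress response (-0.17 to 0.0067), Wnt ligands (-0.092 to 0.2) and Wnt targets (-0.024 to 0.17). Probes near background set only a bound.

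With a replicate block for the label across the tissues as a fixed term, 0 genes passed (242 positive and 311 negative at an unadjusted p under 0.05 in limma). With the replicate number as a fixed block 0 passed (273 and 361), and with the label as a random block 5 passed (consensus correlation 0.049). Deviations of samples with the same label in liver and EWAT correlated at -0.053 to 0.20, and 4 of 8 correlated best with their own label. These values do not settle whether the labels pair the samples. Samples with the same number correlated at -0.028 to 0.27 between control and SOX6 in liver and at -0.031 to 0.65 in EWAT.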

Other observations

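Endothelial genes were negative in 10 of 13 tested, with a median tissue difference of -0.17 (liver 0.035, EWAT -0.21), and 3 of them were negative at an unadjusted p under 0.05 in limma, beside 3.69% of all genes. The log2 summed endothelial signal was 13.70 to 13.86 in control and 13.32 to 13.74 in treated EWAT, with the lowest value in EWAT S2, and 11.11 to 11.76 and 11.10 to 11.37 in liver.

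Cell cycle genes were negative in 7 of 12 with a median of -0.19 (-0.32 to 0.069 over the settings). Ccne1, the cyclin of entry into S phase, gave 0.69 in liver and -0.10 in EWAT (tissue difference -0.79, limma adjusted p = 0.684). Its means of 5.08 in control liver and of 5.05 and 4.95 in control and treated EWAT lie near background. Mcm4, part of the replicative helicase, gave -0.15 in liver and 0.15 in EWAT. Immediate early genes were above 0 in 8 of 10 in liver and 7 of 10 in EWAT, beside 51% and 43.1% of all genes. Their median tissue difference of -0.014 ran from -0.47 to 0.31 over the settings. Ier3 gave 0.033 in liver and 0.74 in EWAT. Genes of oxidative stress were negative in 11 of 17 (median -0.10), Gpx4, which reduces lipid peroxides, with -0.35. Lipoprotein genes split 7 to 8 (median -0.09, from -0.14 to 0.05), with Apom at 0.58 and Apoc2 at -0.38. The EWAT means of Apom and Apoc2 were 4.85 to 5.10, near background. Of the chaperone and stress genes, Dnajc3 gave -0.44 and Trib3 -0.80, and of the acute phase genes Hp gave -0.54 and Serpina3n -0.52. None of these genes passed the threshold.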
